A study of Oryctolagus cuniculus with 12 samples.

Results

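KIT, KITLG, HDC, HRH1, HRH2, HRH4, CPA3, and FCER1A are 8 genes of the mast cell and of histamine, and their RNA was followed in the filtering bleb of the rabbit. They were chosen by name from the 20566 genes in the table, and each name matched a row. Trabeculectomy is a glaucoma operation that lets aqueous humor drain under the conjunctiva, where it raises a filtering bleb. Female Japanese White rabbits were operated on in the right eye with mitomycin C, a drug laid on the tissue to limit scarring. Betamethasone and an antibiotic ointment were given at the end of surgery. Bleb conjunctiva was taken at 3 hours (TL3h), 3 days (TL3d), or 14 days (TL14d), and conjunctiva of the left eye, which was not operated on, was the control, with 3 libraries in each of the 4 groups. Every operated eye therefore differed from the controls in surgery, mitomycin C, steroid, and antibiotic together, and these cannot be told apart. The labels do not say which libraries came from the same rabbit or when the control eyes were taken, so p-values measure the spread between these libraries only.

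Mast cells are resident cells of connective tissue and mucosa that store histamine and proteases in granules. They need the receptor tyrosine kinase KIT and its ligand, stem cell factor, encoded by KITLG. They carry the high-affinity IgE receptor, built of an alpha chain (FCER1A), a beta chain (MS4A2), and a gamma chain (FCER1G), and CPA3 encodes carboxypeptidase A3 of their granules. Histamine is made from histidine by histidine decarboxylase (HDC) and acts through G protein-coupled receptors, of which H1, H2, and H4 (HRH1, HRH2, HRH4) were examined. KIT is also known in melanocytes, blood progenitors, and some glandular epithelia, FCER1A in basophils and dendritic cells, and HDC in other myeloid cells.

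The libraries held between 27111276 and 38591374 counts assigned to genes. In the text, CPM is the count relative to the library total after TMM scaling, a correction for differences in RNA composition between libraries, and it compares 1 gene between libraries. FPKM, which divides by gene length, is used only to compare levels between genes. A count of 0 allows up to 0.0712 to 0.124 CPM, depending on the library, and such limits cover counting error only. A gene was called changed at an adjusted p of 0.05 or less in edgeR's quasi-likelihood test over the 14835 genes that passed the filter on low counts. Control library 2 and TL3d library 3 stood apart in a list of skeletal muscle genes, which summed to 447 and 508 CPM there and to between 1.71 and 12.1 CPM elsewhere. TL14d library 1 resembled the controls, with a mean correlation of 0.962 with them and of 0.898 with the other TL14d libraries.

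CPA3 was the mast cell gene that was all but missing. It had 1 count in control library 2, 1 count in TL3h library 2, and none in the other 10 libraries, so it did not pass the filter and was not tested. Of the 14 other mast cell genes with a row, 5 were too scarce to be tested and 9 were detected in all 12 libraries: MS4A2, FCER1G, GATA2, MITF, LTC4S, IL1RL1, ENPP3, SLC45A3, and SRGN. HPGDS, which makes prostaglandin D2, reached 3 counts at most, and RGS13, a regulator of G protein signalling, reached 2. A chymase-like gene, LOC100008644, was at 0 in every library, and another, LOC100352190, had at most 7 counts. No row carried the symbol CMA1, TPSAB1, or TPSB2 for chymase and the tryptases, so these were not analysed here. SLC18A2, which loads amines such as histamine into granules, was at 0 in the 3 controls and had 36 counts in TL3h library 2 as its highest value. KIT, in contrast, had 18.0 to 42.3 FPKM in the controls, and GATA2, a transcription factor of mast cells and basophils, had 4.65 to 12.4 CPM there. KIT was thus abundant in libraries where CPA3, HPGDS, RGS13, and the chymase-like genes were at or near 0, whereas SRGN, a granule proteoglycan that other blood cells also make, had 125, 314, and 1084 counts in the controls. These values go against the label in that a defining mast cell protease was barely detected. The cells that the KIT RNA came from were not tested.

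**Figure D1:**
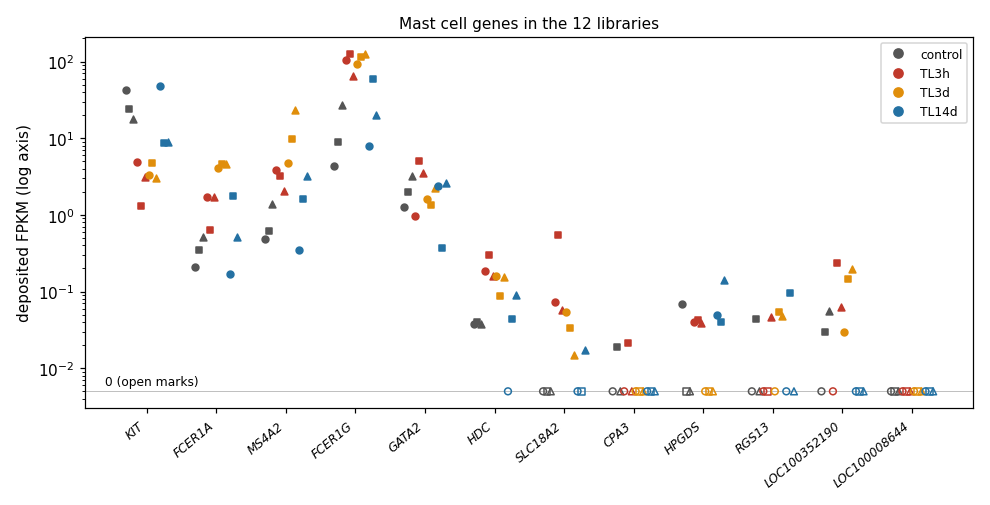
Deposited FPKM on a log axis for 12 genes of the mast cell, with 1 mark per library colored by group and marks on the bottom line at 0 (circles, squares, and triangles are replicates 1, 2, and 3). KIT lay between 1.32 and 48.1 FPKM, whereas LOC100008644 was at 0 in all 12 libraries and CPA3 in 10 of them.

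Of the 8 genes, 7 could be tested. At 3 hours, 4 of the 7 changed, where 45.4% of all genes tested did: HDC, HRH4, and FCER1A were higher (23.2% of all genes) and KIT was lower (22.2%). At 3 days, 2 of the 7 changed, where 17.6% of all genes did: FCER1A was higher (10.6%) and KIT lower (7.0%). The libraries of the control and bleb groups did not overlap for 5 of the 7 genes at 3 hours (57.3% of all genes) and for 6 at 3 days (45.5%). With 7 genes, the counts called are not read as different from those shares. The median log2 fold change of the 7 genes was 2.31 at 3 hours and 1.75 at 3 days, beside 0.02 and 0.00 over all genes. The genes were chosen with earlier results of these data known, so these medians are given as a description only. At 14 days none of the 7 passed edgeR's test, and 0% of all genes passed it. HRH2 alone had an unadjusted p under 0.05 in edgeR (0.0358), and DESeq2 and limma called none of the 7. The groups overlapped for all 7 genes (11.1% of all genes did not overlap). Leaving out control library 2 and TL3d library 3 left 1 of the 7 called at 3 hours, beside 5075 of all genes, and 0 at 3 days, where no gene at all was called. With the 3 times tested together, 5 of the 7 genes passed (52.4% of all genes), and HRH1 (adjusted p = 0.635) and HRH2 (adjusted p = 0.112) did not. All 3 comparisons share the same control libraries.

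**Figure D2:**
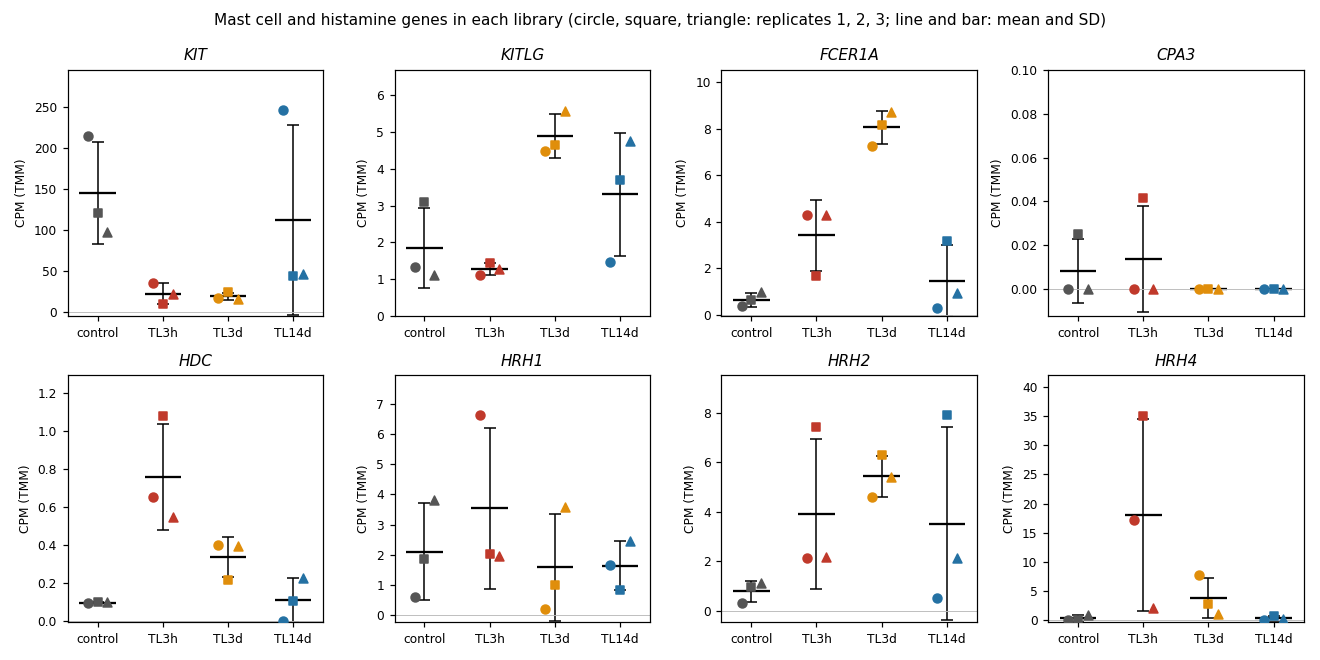
CPM on linear axes for the 8 genes, by group, with replicates 1, 2, and 3 as circle, square, and triangle and the mean and SD in black. KIT fell from 97.3 or more in the controls to 34.9 or less at 3 hours, FCER1A was between 7.27 and 8.71 at 3 days, and HRH4 ranged from 2.09 to 35.0 at 3 hours.

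KIT lies on chromosome 15 (93911836 to 93952369, minus strand, OryCun2.0) and was the most abundant of the 8 genes in the controls. It stood at 215, 121, and 97.3 CPM in control libraries 1 to 3, and at 34.9, 9.71, and 21.6 CPM in the TL3h libraries. The TL3d libraries gave 16.6, 24.1, and 15.9 CPM. Every library of these bleb groups was below every control. KIT was 6.54-fold lower at 3 hours (log2 fold change -2.71 ± 0.72 SE, adjusted p = 0.0116) and 7.65-fold lower at 3 days (-2.94 ± 0.73, adjusted p = 0.0260). In bulk tissue, fewer cells that express a gene and less of its RNA per cell cannot be told apart. The fall at 3 hours passed the test under all 23 other settings tried, with adjusted p from 0.000164 to 0.0406, and was -2.82 without the libraries with muscle RNA. The fall at 3 days did not pass without control library 1 (-2.53, adjusted p = 0.0820), control library 2 (-3.05, 0.0635), TL3d library 1 (-2.85, 0.0902), TL3d library 2 (-3.15, 0.0755), or TL3d library 3 (-2.82, 0.0604), nor without both libraries with muscle RNA (-2.94, 0.107).

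At 14 days KIT was split. TL14d library 1 had 246 CPM, above every control, and TL14d libraries 2 and 3 had 43.8 and 45.8 CPM, below every control. The log2 fold change was -0.37 ± 0.68 (adjusted p = 0.872) with all libraries and -1.69 (adjusted p = 0.101) without TL14d library 1, the library that resembled the controls. Between 3 and 14 days KIT did not pass edgeR's test (2.57, adjusted p = 0.0842), though DESeq2 called it (2.55, adjusted p = 0.00364), and it was 1.25 (adjusted p = 0.244) without TL14d library 1.

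Genes of the conjunctival epithelium went in both directions. Of the 7 tested, 1 was called at 3 hours (45.4% of all genes) and 2 at 3 days (17.6% of all genes). EPCAM, an epithelial adhesion molecule, rose at 3 hours (log2 fold change 0.997 ± 0.164, adjusted p = 0.000884), and at 3 days KRT5, a keratin of basal cells, rose (1.86 ± 0.48, adjusted p = 0.0291). KRT15, a keratin of basal epithelium, fell at 3 days (-3.03 ± 0.78, adjusted p = 0.0291). Both keratin calls were lost without any 1 of control libraries 1 and 2 and TL3d libraries 1 and 2, and that of KRT5 also without control library 3 (adjusted p from 0.0626 to 0.106). At 3 hours KRT15 had 544 to 774 CPM, below the 1447 to 2743 CPM of the controls, and did not pass (-1.73 ± 0.74, adjusted p = 0.0835). KRT4, a keratin of the upper layers, and TP63, a factor of basal cells, did not pass at 3 hours (-0.74 ± 0.53, adjusted p = 0.291, and -0.67 ± 0.33, adjusted p = 0.120). The list summed to 8031 to 12662 CPM in the controls, 6578 to 10357 at 3 hours, and 7912 to 18384 at 3 days. ENPP3, a surface enzyme used to mark basophils and mast cells, stood at 272 to 584 CPM in the controls and fell at 3 hours (-1.39 ± 0.46, adjusted p = 0.0303). That call was lost without control library 1 (-1.18, adjusted p = 0.0965), control library 2 (-1.29, 0.0812), TL3h library 2 (-1.14, 0.0833), or TL3h library 3 (-1.54, 0.0560). It was also lost without both libraries with muscle RNA. Of pigment cells, another cell type that uses KIT, none of 7 genes passed at any time, and their list summed to 9.88 to 31.8 CPM in the controls, 16.4 to 71.2 CPM at 3 hours, and 16.4 to 31.3 CPM at 3 days. At 14 days it summed to 10.2 and 23.7 CPM in 2 libraries and to 176 CPM in TL14d library 2. The part of epithelium and pigment cells in the values of KIT was not tested.

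KITLG, on chromosome 4 (67503403 to 67541344, minus strand), encodes the ligand of KIT and moved later. The controls had 1.33, 3.10, and 1.10 CPM, and the TL3h libraries 1.11, 1.45, and 1.28 CPM. The TL3d libraries had 4.47, 4.65, and 5.58 CPM, above all 6 of these, and the TL14d libraries had 1.48, 3.70, and 4.75 CPM. KITLG rose 3.81-fold from 3 hours to 3 days (log2 fold change 1.93 ± 0.49, adjusted p = 0.0113), and this call held under every alternative. It was the only one of the 7 genes called between these times (37.3% of all genes). Against the controls KITLG did not pass at 3 hours (-0.52, adjusted p = 0.406, and 0.07 without control library 2) or at 3 days (1.41 ± 0.48, adjusted p = 0.0650). At 3 days it did pass with DESeq2 (adjusted p = 0.0187), with limma-trend (0.0464), and without TL14d library 1 (0.0269).

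FCER1A, on chromosome 13 (33924329 to 33933087, minus strand), rose at both early times. The controls had 0.380, 0.625, and 0.978 CPM, the TL3h libraries 4.31, 1.66, and 4.28 CPM, and the TL3d libraries 7.27, 8.16, and 8.71 CPM. The 3 groups did not overlap, whereas at 14 days the values of 0.303, 3.18, and 0.944 CPM lay on both sides of the controls. The rise was 5.15-fold at 3 hours (log2 fold change 2.36 ± 0.74, adjusted p = 0.0238) and 12.1-fold at 3 days (3.60 ± 0.77, adjusted p = 0.0173). At 3 hours the call was lost without control library 1 (2.08, adjusted p = 0.0849), control library 2 (2.32, 0.0730), TL3h library 1 (2.12, 0.0665), or TL3h library 3 (2.12, 0.0685). At 3 days it was lost without control library 1 (3.32, 0.0670), control library 2 (3.56, 0.0653), TL3d library 1 (3.67, 0.0512), or TL3d library 2 (3.59, 0.0567). The difference between 3 hours and 3 days did not pass (1.23, adjusted p = 0.188), except in a fit of those 6 libraries alone (1.27, adjusted p = 0.0376). Both libraries with muscle RNA left out gave 2.32 (0.0933) at 3 hours and 3.50 (0.0870) at 3 days.

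The other chains of the IgE receptor rose as well. MS4A2, the beta chain, went from 0.380, 0.475, and 1.13 CPM in the controls to 4.23, 3.65, and 2.20 CPM at 3 hours (2.34 ± 0.82, adjusted p = 0.0387) and 3.67, 7.42, and 18.6 CPM at 3 days (3.90 ± 0.86, adjusted p = 0.0185). The highest value came from TL3d library 3, a library with muscle RNA, and without it and control library 2 MS4A2 was 2.87 at 3 days (adjusted p = 0.109) and 2.15 at 3 hours (adjusted p = 0.0993). At 3 hours the call of MS4A2 was also lost without any 1 of control libraries 1 and 2, the 3 TL3h libraries, TL3d library 2, and TL14d library 2 (adjusted p from 0.0504 to 0.122), and at 3 days without control library 1 (0.0723), control library 2 (0.0716), or TL3d library 2 (0.0548). FCER1G, the gamma chain, which many myeloid cells also use, rose at 3 hours (3.31 ± 0.81, adjusted p = 0.00776) and at 3 days (2.99 ± 0.80, adjusted p = 0.0326). At 3 days that call was lost without control library 1 (2.56, 0.0929), control library 2 (2.75, 0.109), TL3d library 1 (3.11, 0.0732), TL3d library 2 (2.97, 0.0841), or TL3d library 3 (2.88, 0.0557). Without control library 3, FCER1G was 4.36 at 3 hours and 4.07 at 3 days. Of the 9 other mast cell genes tested, 4 were higher and 1 lower at 3 hours (45.4% of all genes were called), 3 were higher at 3 days (17.6% of all genes), and none passed at 14 days. The remaining 2 that were higher at 3 hours were SRGN, the granule proteoglycan serglycin (5.46 ± 1.12, adjusted p = 0.00304), and IL1RL1, the receptor of interleukin 33 (3.10 ± 0.75, adjusted p = 0.00735). SRGN was 6.64 without control library 3. MILR1, a mast cell immunoglobulin-like receptor chosen after values were seen, rose at 3 hours (3.95, adjusted p = 0.000749) and 3 days (4.19, 0.00950). MCEMP1, a mast cell expressed membrane protein chosen likewise, rose at 3 hours (3.19, 0.0401). The MILR1 call at 3 days was lost without both libraries with muscle RNA (0.0622), and the MCEMP1 call in 11 of 23 alternatives.

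Markers of dendritic and Langerhans cells rose mostly at 3 days. Of the 8 tested, 1 was higher at 3 hours and 7 at 3 days, among them CD207, the langerin of Langerhans cells (3.91 ± 1.14, adjusted p = 0.0421), and CD1B (3.57 ± 0.80, adjusted p = 0.0196), which presents lipid antigens. Both calls were lost without any 1 of control libraries 1 and 2 and TL3d libraries 1 and 2, and that of CD207 also without control library 3, TL3d library 3, or any 1 TL3h library (adjusted p from 0.0537 to 0.128). Their list summed to 14.3 to 52.0 CPM in the controls, 55.8 to 83.8 CPM at 3 hours, and 163 to 270 CPM at 3 days. Within TL3h the sum was highest in library 2, where FCER1A was lowest, but CD209 alone was 57.3 of the 83.8 CPM there. CD207, CD1B, and CD1E were lowest in that library, and CD1C, CD209, ITGAX, and XCR1 were highest there. In the controls and at 14 days FCER1A and the sum had the same order. At 3 days both were highest in library 3, and libraries 1 and 2 were in opposite order. Of the 8 monocyte and macrophage genes tested, 3 were higher at 3 hours and 5 at 3 days, and their list summed to 75.0 to 609 CPM in the controls and 1330 to 2112 CPM at 3 days. Over all genes, 23.2% were higher at 3 hours and 10.6% at 3 days. The eosinophil list summed to at most 0.201 CPM in the controls and 0.862 to 1.22 CPM at 3 days, and IL5RA, a receptor chain for interleukin 5, was the 1 gene of it tested and was higher then. The part of dendritic cells, macrophages, and eosinophils in the values of FCER1A was not tested.

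HDC, on chromosome 17 (22217281 to 22238784, plus strand), was rare but rose early. Each control library had 4 counts. The TL3h libraries had 17, 26, and 15 counts (0.653, 1.08, and 0.549 CPM), and the TL3d libraries 16, 7, and 14 counts (0.400, 0.216, and 0.398 CPM). Both groups lay above every control. The TL14d libraries had 0, 4, and 7 counts. HDC was 7.47-fold higher at 3 hours (log2 fold change 2.90 ± 0.77, adjusted p = 0.0117), and among the alternatives at the gene level the call was lost in 1, without the libraries with muscle RNA (2.91, adjusted p = 0.0583). At 3 days the difference of 1.75 ± 0.77 did not pass (adjusted p = 0.130), although without TL14d library 1 it did (adjusted p = 0.0307). At 14 days the difference from the controls was 0.19 ± 0.81 and did not pass (adjusted p = 0.951).

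Of the 4 tested genes that break down or take up histamine, none passed at 3 hours in edgeR (45.4% of all genes did), with SLC22A3 and MAOA at an unadjusted p under 0.05, and 2 passed at 3 days (17.6% of all genes). HNMT, the methyltransferase that inactivates histamine inside cells, had 3.75, 7.10, and 10.1 CPM in the controls and 18.0, 25.1, and 57.4 CPM at 3 days (2.26 ± 0.54, adjusted p = 0.0228). It was lost without control library 1 (1.96, adjusted p = 0.0796), control library 2 (2.28, 0.0758), TL3d library 2 (2.43, 0.0580), or TL3d library 3 (1.63, 0.0517), and was 1.64 (0.122) without both libraries with muscle RNA. SLC22A3, a transporter that takes up histamine and other amines, had 10.2, 8.88, and 8.10 CPM in the controls and 2.34, 0.539, and 1.39 CPM at 3 hours, below every control without passing (-2.66 ± 1.09, adjusted p = 0.0707). It had 0.0250, 0.308, and 1.57 CPM at 3 days (-3.84 ± 1.15, adjusted p = 0.0459). Its call was the least stable of these, lost in 13 of the 23 alternatives, and it was -5.80 (adjusted p = 0.0687) without both libraries with muscle RNA, -3.26 (0.0964) without TL3d library 1, and -3.51 (0.150) without TL3d library 2. The other single libraries whose removal ended it were the 3 controls, the 3 TL3h libraries, and TL14d library 3 (adjusted p from 0.0531 to 0.103). MAOA, which oxidizes amines, reached 24.1 to 67.9 CPM at 3 hours against 9.49 to 28.2 CPM in the controls and did not pass (1.54 ± 0.64, adjusted p = 0.0746), nor did its relative MAOB (0.31 ± 0.88, adjusted p = 0.801). AOC1, the diamine oxidase that degrades histamine outside cells, had 1 count in all 12 libraries together.

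**Figure D3:**
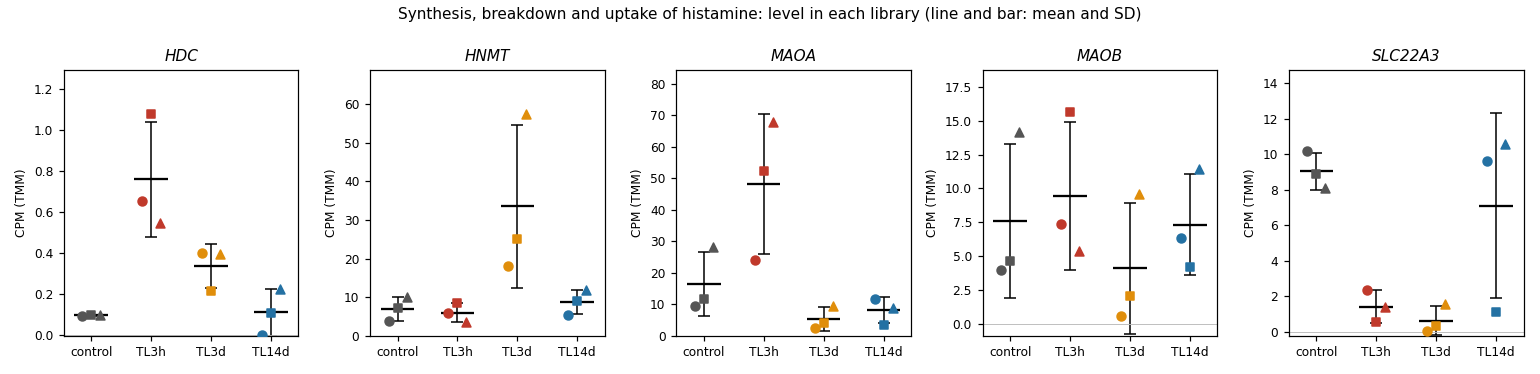
CPM on linear axes for HDC, HNMT, MAOA, MAOB, and SLC22A3 by group, with replicates 1, 2, and 3 as circle, square, and triangle and the mean and SD in black. HDC was highest at 3 hours (0.549 to 1.08 CPM), HNMT at 3 days (18.0 to 57.4 CPM), and SLC22A3 fell to between 0.0250 and 1.57 CPM at 3 days.

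Among the receptors, HRH4 had the highest fold change. It lies on chromosome 9 (65630655 to 65648315, plus strand) and encodes the H4 receptor, known on leukocytes. The controls had 0, 1, and 38 counts (0, 0.0250, and 0.953 CPM) and the TL3h libraries 447, 843, and 57 counts (17.2, 35.0, and 2.09 CPM). The groups did not overlap, but values within each differed more than 10-fold. The TL3d libraries had 7.69, 2.86, and 1.02 CPM, and the TL14d libraries 0, 0.706, and 0.228 CPM. The log2 fold change was 5.78 ± 1.74 at 3 hours (adjusted p = 0.0208) and 3.56 ± 1.60 at 3 days (adjusted p = 0.138). Control library 3 held 38 of the 39 control counts, and without it the fitted change was 10.10 (adjusted p = 0.00627) at 3 hours and 7.91 (adjusted p = 0.0428) at 3 days, values that depend on the prior count because the other controls had at most 1 count. The call at 3 hours was lost without control library 1 (5.19, adjusted p = 0.0565), control library 2 (5.24, 0.0665), or TL3h library 2 (4.83, 0.0653), and without both libraries with muscle RNA (5.24, 0.0687). A fit with the replicate number as a block also ended this call.

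Neutrophil genes moved with HRH4. Of the 11 tested, 10 were higher at 3 hours (23.2% of all genes), among them CXCR2, a receptor for neutrophil-attracting chemokines (6.17 ± 1.44, adjusted p = 0.00602), and CSF3R, the receptor of granulocyte colony-stimulating factor (6.12 ± 1.37, adjusted p = 0.00484). Without control library 3 the changes at 3 hours were 9.48 for CXCR2 and 8.30 for CSF3R. At 3 days 2 of the neutrophil genes were higher (10.6% of all genes). The neutrophil list summed to 6.53, 12.5, and 112 CPM in control libraries 1 to 3, the order of HRH4 there. It summed to 2570, 3762, and 1475 CPM in the TL3h libraries, again with library 2 highest and library 3 lowest. In the TL14d libraries it summed to 5.21, 2153, and 210 CPM, while HRH4 was 0, 0.706, and 0.228 CPM. MMP9, a gelatinase that other cells also make, was 1992 CPM of the sum in TL14d library 2. CSF3R, CXCR1, and CXCR2 were at 6.63, 2.66, and 0.897 CPM there, below their lowest TL3h values of 228, 227, and 82.6 CPM. These 3 genes were also below their lowest TL3d values of 39.6, 33.0, and 11.7 CPM, and HRH4 was below every TL3d library too. FPR1 and FPR2, receptors for bacterial peptides, were at 32.9 and 39.9 CPM there, below their TL3h values but above every TL3d library. The part of neutrophils in the values of HRH4 was not tested.

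HRH2, on chromosome 3 (56422103 to 56450578, plus strand), encodes the H2 receptor, which raises cyclic AMP. The controls had 0.309, 0.951, and 1.10 CPM, the TL3h libraries 2.15, 7.43, and 2.16 CPM, and the TL3d libraries 4.62, 6.28, and 5.41 CPM. All 6 bleb libraries of these times lay above every control. Even so, HRH2 did not pass at 3 hours (2.31 ± 0.90, adjusted p = 0.0595) or 3 days (2.78 ± 0.91, adjusted p = 0.0601), where DESeq2 called both (adjusted p = 0.0187 and 0.00730). Without TL3h library 2 the change at 3 hours was 1.40 (adjusted p = 0.254). Without TL14d library 1 it passed at 3 hours (2.30, adjusted p = 0.0224) and 3 days (2.78, adjusted p = 0.0215), as it did without TL14d library 2 (adjusted p = 0.0262 and 0.0293). At 14 days TL14d library 2 had 7.93 CPM, and libraries 1 and 3 had 0.504 and 2.15 CPM. An annotated H2 receptor-like gene beside it, LOC103348006, had at most 2 counts.

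HRH1, on chromosome 9 (12521945 to 12528229, minus strand), encodes the H1 receptor, the target of classic antihistamines. It showed no change past the test at any time. The controls had 0.617, 1.88, and 3.81 CPM and the TL3h libraries 6.61, 2.03, and 1.98 CPM. The TL3d libraries had 0.200, 0.985, and 3.59 CPM and the TL14d libraries 1.65, 0.842, and 2.44 CPM. Ranges overlapped in all 3 comparisons (0.75 ± 0.95, -0.40 ± 0.95, and -0.36 ± 0.95). The direction turned without TL3h library 1 at 3 hours (-0.11), without control library 3 at 3 days (0.34) and 14 days (0.39), and without TL3d library 1 at 3 days (0.12). The fibroblast list, of which none of 8 genes passed at any time, summed to 12259, 35629, and 76688 CPM in control libraries 1 to 3 and to 1355, 11856, and 65198 CPM in TL3d libraries 1 to 3, the same order as HRH1 in those groups and also at 14 days. At 3 hours the order differed: the list summed to 105497, 126059, and 107666 CPM, and HRH1 was highest in TL3h library 1, where the sum was lowest. Of 8 genes of vessel endothelium, where the H1 receptor is also known, 2 rose at 3 hours (23.2% of all genes), PECAM1 (3.68 ± 0.97, adjusted p = 0.0109) and CDH5 (2.46 ± 0.87, adjusted p = 0.0401), both adhesion molecules of endothelial cells. The other 6 did not pass. Of these, CLDN5 and ESAM lay above every control at 3 hours, where 57.3% of all genes did not overlap. VWF, TEK, KDR, and EMCN overlapped the controls. Without control library 3 the changes of PECAM1 and CDH5 were 5.44 and 3.63. The call of PECAM1 was lost without both libraries with muscle RNA (adjusted p = 0.0599). The call of CDH5 was lost without any 1 of control libraries 1 and 2, the TL3h libraries, and the TL3d libraries (adjusted p from 0.0506 to 0.121). The part of fibroblasts and endothelium in the values of HRH1 was not tested. HRH3, the receptor known from neurons, had 1 count in all libraries together.

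**Figure D4:**
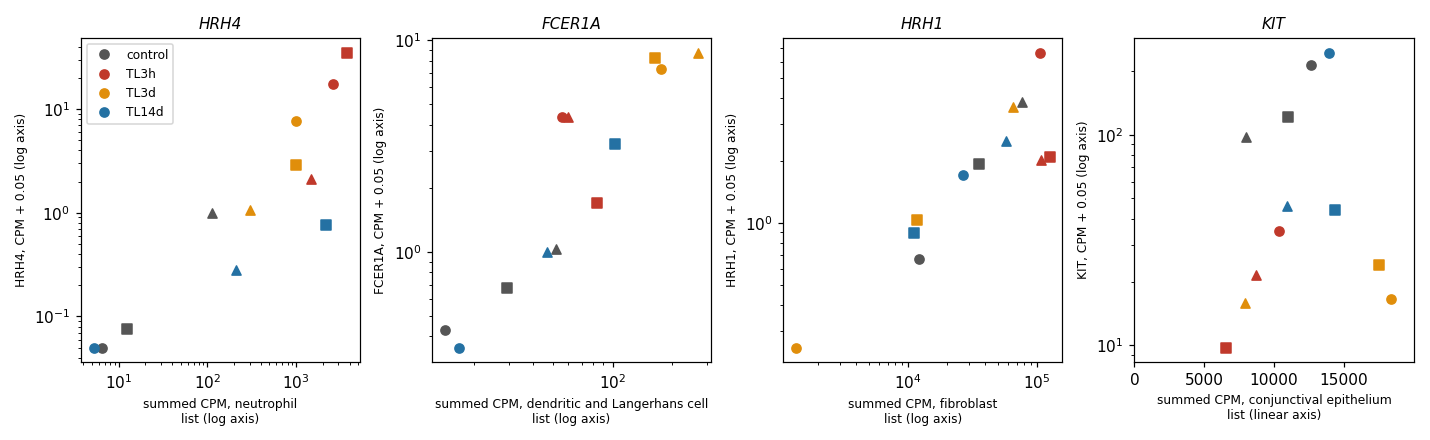
CPM of HRH4, FCER1A, HRH1, and KIT plus 0.05 (log axes), 1 mark per library, against the summed CPM of neutrophil, dendritic and Langerhans cell, fibroblast, and conjunctival epithelium lists (log axes, linear for the epithelium). HRH4 was 35.0 CPM where the neutrophil sum was 3762 CPM, and 0.706 CPM in TL14d library 2, where MMP9 alone was 1992 of the 2153 CPM summed.

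**Figure D5:**
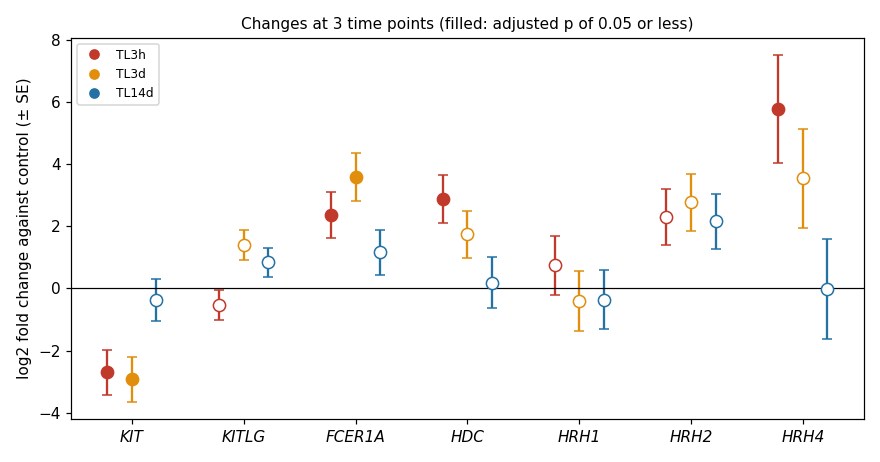
Log2 fold change against the controls with its SE for the 7 genes tested, at each time after surgery, with filled marks at an adjusted p of 0.05 or less. KIT was below 0 at 3 hours and 3 days (-2.71 and -2.94), FCER1A above it (2.36 and 3.60), and no mark was filled at 14 days.

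By length, KIT made up most of the RNA of the 8 genes in every control and in no library at 3 hours or 3 days. Its share of their summed FPKM was 81.1% to 94.7% in the controls, 9.52% to 40.7% at 3 hours, and 16.9% to 25.7% at 3 days. In each control library KITLG came next, and KIT exceeded it 5.49- to 22.8-fold. At 3 hours HRH4 had the highest mean (4.55 FPKM), ahead of KIT (3.09 FPKM), but that rests on TL3h library 2 (8.71 against 1.32 FPKM), and KIT was the higher in library 1 (4.87 against 4.38 FPKM) and library 3 (3.08 against 0.544 FPKM). At 3 days KITLG led in all 3 libraries (6.25 to 7.50 FPKM), above FCER1A (4.05 to 4.66 FPKM), with KIT at 3.01 to 4.79 FPKM overlapping FCER1A. In TL14d library 1 KIT was again 94.4% of the sum, and in libraries 2 and 3 it was 48.6% and 51.4%. CPA3 had the lowest mean and HDC the second-lowest in every group.

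From 3 hours to 14 days 4 of the 7 genes changed (45.3% of all genes). KIT and KITLG rose and HDC and HRH4 fell. From 3 days to 14 days none of the 7 passed edgeR's test (2.24% of all genes), with 2 at an unadjusted p under 0.05 and 2 called by DESeq2, KIT and FCER1A.

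Of the 20 tested signalling genes downstream of KIT and the IgE receptor, 6 rose and 4 fell at 3 hours (45.4% of all genes were called), 7 rose and 1 fell at 3 days (17.6% of all genes), and none passed at 14 days. SYK, the kinase that binds the gamma chain, rose at 3 hours (2.31 ± 0.67, adjusted p = 0.0172) and 3 days (3.17 ± 0.69, adjusted p = 0.0180), and the adaptor LCP2 did so too (2.89 ± 0.71, adjusted p = 0.00804, and 3.08 ± 0.72, adjusted p = 0.0217). SH2B3, an adaptor that restrains KIT signalling, rose at 3 hours (1.42 ± 0.12, adjusted p = 3.5e-05) and 3 days (1.04 ± 0.12, adjusted p = 0.00695). PLCG2, a phospholipase, fell at both times (-1.89 ± 0.26, adjusted p = 0.000366, and -1.08 ± 0.26, adjusted p = 0.0228). Without any 1 of control libraries 1 and 2 and TL3d libraries 1 and 2, SYK, LCP2, and PLCG2 did not pass at 3 days (adjusted p from 0.0512 to 0.0826). SYK did not pass at 3 hours without control library 1 (0.0661), control library 2 (0.0645), or TL3h library 2 (0.0641), or without both libraries with muscle RNA (0.0829). Among cytokines that act on mast cells, those that rose at 3 hours included TSLP (3.60 ± 0.51, adjusted p = 0.000380) and IL10 (2.55 ± 0.67, adjusted p = 0.0109), the latter not passing without both libraries with muscle RNA (2.36, adjusted p = 0.0520). IL4 and IL9 were at 0 in every library, IL5 had at most 1 count, and IL13 at most 3.

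The 5 genes closest to each of the 7 in pattern, by Pearson correlation of log2 CPM over the 12 libraries, which share groups and composition, are given as a description. HRH4 was closest to NFE2 (0.981), SELPLG, RGS2, S100A9, and CCRL2, of which S100A9 is on the neutrophil list. KIT was closest to CCDC12 (0.980), KIF13B, SGF29, TGM2, and KLC3. HRH1 was closest to DPT (0.925), CACNA1G, SLC2A10, COL1A2, and PDGFRB, of which DPT, COL1A2, and PDGFRB are on the fibroblast list. FCER1A was closest to SNX2 (0.956), LOC100348005, ATP5C1, FAM49B, and PKIB, and HRH2 to TMEM95 (0.975), KCNAB2, LOC100353067, SEMA7A, and NIN. HDC was closest to SLAMF6 (0.962), GUCA2A, HCST, E2F3, and IDO1, and KITLG to GCSAM (0.952), DEPDC1, CD8B, NYAP1, and MND1.

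The deposited table of transcripts held 11 transcripts of the 8 genes, and 9 were tested. At 3 hours 4 were called (28.3% of all transcripts), namely those of KIT, the main HRH4 transcript, and both of FCER1A. The single transcript of HDC, with the counts of the gene, did not pass there (2.85 ± 1.05, adjusted p = 0.0672). At 3 days 3 were called (5.13%), those of KIT and both of FCER1A, and at 14 days none (0%). A single transcript held at least 81.1% of the counts of FCER1A, 83.5% of HRH4, and 84.8% of HRH2 in every library with counts. The minor FCER1A transcript went from 0.000107 counts or less in the controls to 5.07 to 16.3 counts at 3 hours and 29.0 to 40.6 counts at 3 days.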

How the data were processed

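RNA of 12 rabbit conjunctiva samples was sequenced from stranded mRNA libraries. The authors aligned reads to OryCun2.0 (STAR 2.6.0c is named in the submitters' processing notes) and deposited estimated counts per gene and per transcript, of which 23.4% of the gene values were fractions, together with FPKM. Whether strand was used in counting was not given in the sources used here. The estimated counts were rounded and tested with edgeR 4.0.16 in R 4.3.3 (TMM, filterByExpr with a minimum count of 10 and a minimum total of 15, quasi-likelihood F test, all 12 libraries in 1 fit without covariates, Benjamini-Hochberg adjustment over all genes tested). SE is the log2 fold change divided by the square root of F. The design had assumed whole counts. With 3 libraries a group, an exact permutation test cannot give a p below 0.1, so none was used. TMM factors were 0.768 to 0.783 in TL3h and 1.03 to 1.13 elsewhere.

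The 8 genes and the gene lists were chosen with earlier results of these data known. The named genes were all 8 members, and in every other list up to 6 genes that passed the test at any time, ranked by fold change and averaging 1 CPM or more, plus markers at 0 throughout. A few others (MAOA, MAOB, AOC1, HRH3, IL5, IL13, IL5RA, KRT4, TP63, CXCR1, and the scarce mast cell markers) were named after their values were seen. So were MILR1, MCEMP1, CD209, XCR1, CLDN5, ESAM, VWF, TEK, KDR, and EMCN. The 5 genes most like a member had the highest Pearson correlation of log2 CPM with a prior count of 2. No 2 libraries of a group agreed within sampling noise. The test was checked on simulated counts. Alternatives included DESeq2 1.42.0, limma 3.58.1, other scalings and filters, a replicate block, and each library left out. A result of 1 cytokine gene is not reported here.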

Additional observations from a re-analysis of the deposited data

Results flagged for a closer look

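For 4 genes, the change after surgery differed between time points by a direct test of the difference (edgeR, log2 fold change with SE). From 3 hours to 14 days KIT rose by 2.34 ± 0.71 (adjusted p = 0.0221), which was lost without TL3h library 2 (2.03, 0.0709), TL3h library 3 (2.37, 0.0629), or TL14d library 1 (1.02, 0.118). KITLG rose by 1.93 ± 0.49 from 3 hours to 3 days (adjusted p = 0.0113), in all 3 libraries, and no alternative changed the call. From 3 hours to 14 days KITLG rose by 1.37 ± 0.48 (adjusted p = 0.0407), a call lost without any 1 TL3h or TL3d library (adjusted p from 0.0523 to 0.0992) and without TL14d library 2 (1.28, 0.0879) or 3 (1.02, 0.142). HDC was -2.71 ± 0.78 (adjusted p = 0.0171), lost without TL3h library 2 (-2.34, 0.0662) or TL14d library 2 (-2.69, 0.0526) and at -3.64 without TL14d library 3, with 15 to 26 counts at 3 hours and 0 to 7 at 14 days. HRH4 was -5.81 ± 1.75 (adjusted p = 0.0215), lost without TL3h library 2 (-4.86, 0.0669), TL14d library 1 (-5.24, 0.0527), or TL14d library 3 (-5.62, 0.0700) and at -7.25 without TL14d library 2.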

How the results depend on the processing

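Of 42 gene comparisons, 11 were called, and 2 of these (KIT at 3 hours and KITLG from 3 hours to 3 days) stayed called under all 23 alternatives. A further 9 uncalled comparisons passed under some alternative, and 11 changed sign under some. Among genes of the other lists, 15 of 55 calls stayed, 40 were lost under some alternative, and 0 changed sign. Where a count or sign moved, the cause was not tested.

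The number of the 7 genes called at 3 days was 4 with DESeq2, with limma-trend at either prior count, with the replicate block, and without control library 3 and TL14d library 1. Without the libraries with muscle RNA, an alternative added after seeing the data as was the last, it was 1 at 3 hours and 0 at 3 days, and all genes at 3 days gave 0 calls. It was 2 from 3 hours to 3 days and 1 from 3 hours to 14 days with the 6 libraries compared alone, and 2 from 3 to 14 days with DESeq2. Over all genes, edgeR called 6733 at 3 hours (4270 with a fold of at least 2), 2608 at 3 days (1650 with that fold, 4471 with DESeq2), and 0 at 14 days (367 with DESeq2, 999 without control library 3 and TL14d library 1). Of the transcripts, 0 were called at 3 hours and 0 at 3 days without the libraries with muscle RNA, 5 at 3 days with DESeq2, and 1 at 14 days with DESeq2 or without control library 3 and TL14d library 1.

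Leaving out 1 library at a time gave 2 to 5, 0 to 5, and 0 called genes of the 7 against the controls in order of time, 1 from 3 hours to 3 days, 0 to 1 from 3 to 14 days, and 0 to 4 from 3 hours to 14 days. All genes gave 5280 to 7271, 359 to 3778, and 0 to 716, and transcripts 1 to 6, 0 to 4, and 0 to 1.

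The sign turned for these uncalled log2 fold changes. KIT from 3 hours to 3 days was 0.25 by library size alone. KITLG at 3 hours was 0.073 without the muscle libraries. HDC at 14 days was -0.15 and -0.57 with limma-trend. Without control library 3 and TL14d library 1, HRH1 was 0.34 at 3 days and 0.39 at 14 days, HRH2 from 3 hours to 14 days was 0.41 (0.35 by library size), and HRH4 at 14 days was 4.89 (0.024 by library size, 0.45 and 0.73 with limma-trend). With 1 library left out, the ranges were -1.69 to 0.036 for KIT at 14 days, -0.54 to 0.31 for KIT from 3 hours to 3 days, -0.84 to 0.073 for KITLG at 3 hours, -0.74 to 0.74 for HDC at 14 days, -0.11 to 1.45, -1.83 to 0.34, and -0.79 to 0.39 for HRH1 at the 3 times, -0.48 to 1.48 for HRH1 from 3 to 14 days, -1.55 to 0.75 for HRH2 from 3 hours to 14 days, -1.47 to 4.33 for HRH4 at 14 days, and -0.081 to 1.64 for FCER1A at 14 days.

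Replicate numbers are shared by the groups. Over 18 pairs of same-numbered samples, deviations from the group means correlated at -0.147 to 0.481, and 8 pairs exceeded 0.1. Pairs with different numbers were not compared, so these values cannot decide whether the numbers pair the samples. With the replicate block KIT from 3 hours to 3 days was 0.018, HRH4 at 3 hours was not called (5.38, adjusted p = 0.0661), KITLG at 3 days was (1.49, 0.0496), and so was HRH2 at 3 hours (2.19, 0.0254) and 3 days (2.98, 0.0255).

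Scaling by library size alone shifted the median of all genes at 3 hours to -0.47, and 25.0% of calls were then higher, against 51.0% with TMM. Depth limits HDC and CPA3.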
